A study of Gallus gallus with 8 samples.

Results

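The regions described here are those in which all 8 Nrf2 CUT&Tag peak lists of broiler (Gallus gallus) liver had a peak. The peaks of the 8 lists were pooled, and any that met were joined into a single region, which was kept when every list had at least 1 bp of peak in it. This held for 728 of 30246 regions, or 2.41%, called common regions below. They were chosen by the peak calls of these same lists, so their presence in both groups is the rule and not a result. The series asks which genes Nrf2 regulates in the liver of heat-stressed chickens. It has 4 samples labelled PT and 4 labelled HT, with 1 peak list each. HT samples carry a high temperature label. PT samples carry labels that disagree with each other: phloretin, a plant polyphenol, in one field, normal in another, and high temperature treatment in the protocol shared by all 8. What the PT birds received is therefore not settled, and the strain, age, sex, dose and duration are not given. No label says that the lists of a group come from separate birds.

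Nrf2 is a transcription factor that is held in the cytoplasm and marked for destruction by KEAP1 until oxidants or electrophiles release it. It then enters the nucleus, pairs with small Maf proteins and binds antioxidant response elements near genes of glutathione synthesis, quinone reduction and drug conjugation. The liver, the main organ of detoxification, relies on this pathway, and heat load in poultry is known to raise oxidative stress. In CUT&Tag an antibody brings a transposase to the protein, so that the DNA beside it is cut and tagged. The chicken genome has a few large chromosomes, many small gene-rich ones called microchromosomes, and the sex chromosomes Z and W. Males have a pair of Z and females have Z and W.

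The lists held 5120, 6485, 6638 and 7302 peaks in PT and 9437, 9816, 10730 and 11141 in HT. They hold no read counts, so the depth of each sample is unknown and no counting interval can be given. Lists of the same group often gave the same peak ends. In the common regions the summed width was the same to the base in all 4 PT lists for 260 regions and in all 4 HT lists for 91. Only 22 common regions had no peak with the same start and end in any pair of lists. The lists of a group may thus not be independent, and every p-value below compares these lists only, with a spread that may be too small. No gene, exon or sequence is given for any region, because no galGal6 annotation or genome was used here.

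Common regions held a small share of the peaks of each list, but most of its 100 highest-scoring peaks. They took up 16.3% to 18.3% of the bases under HT peaks and 21.0% to 27.6% of those under PT peaks. They held 763 to 776 peaks of each HT list and 779 to 786 of each PT list, which is 6.88% to 8.19% of the HT peaks and 10.8% to 15.4% of the PT peaks. Of the 100 highest-scoring peaks of a list, 91 to 93 fell in a common region in HT and 78 to 83 in PT. The groups did not overlap in any of these values. The rule gives every list at least 1 peak in each common region. The shares of a list's peaks and bases thus depend on its length, and HT lists were longer. Of the highest-scoring 1000, 397 to 429 fell in a common region in HT and 326 to 348 in PT. The score is the value the authors' caller gave each peak, on a scale that is not stated, and it is compared only as an order within a list. The median common region stood at the 76.4th to 83.1st percentile of a PT list and at the 91.8th to 93.0th percentile of an HT list. HT lists are longer, and a percentile in lists of unequal length shows no change by itself. Not every common region was strong. In 430 of 728 the peaks of all 8 lists were at or above the 50th percentile, in 176 at or above the 90th and in 44 at or above the 99th.

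The regions just outside the rule were those of 7 lists, 227 in number. Of these, 122 lacked 1 PT list and 105 lacked 1 HT list. PT list 4 was the missing one for 74, and each of the other lists for 11 to 32. Their median width was 1000 bp and their median score percentile 65.5. The common regions had medians of 1173.5 bp and 87.7. Regions found in 1 list, 16922 in number, had medians of 471 bp and 37.1. A wider region can meet more lists, and how much of this order comes with the merging was not tested.

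Scaffolds, the pieces of the assembly that have no place on a chromosome, held 157 of the 728 common regions, or 21.6%. They held 17.6% of the regions of 7 lists, 14.6% of those of 6 lists and 19.2% of those of 5 lists. The share was 8.14% for 4 lists, 8.84% for 3, 6.13% for 2 and 2.17% for 1, so it did not rise at every step. Among the 571 common regions on chromosomes, 168 (29.4%) lay within 1 Mb of position 1 or of the last peak of the chromosome. The same share was 21.4% for regions of 7 lists, 12.4% for 4 lists, 13.9% for 3 lists and 7.91% for 1 list. Within 0.5 Mb it was 20.3% against 5.26% of all regions, and within 2 Mb 37.8% against 19.0%. On the smallest chromosomes the 1 Mb windows take in most or all of the sequence. Chromosome 30, with its last peak at 1.80 Mb, had 8 of 8 common regions near an end, and chromosome 16 (2.81 Mb) had 9 of 10. The part of chromosome size in these shares was not tested. Common regions near an end stood at a median percentile of 92.6 and those further in at 77.0, each averaged over the 8 lists. Of 220 scaffolds with any region, 46 held a common one, and 5 of them held 89 of the 157, with 26, 22, 16, 13 and 12. Those 5 held 56.7% of the common regions on scaffolds and 58.9% of all regions on scaffolds. These shares describe the peak lists, and no test of them was made.

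**Figure D1:**
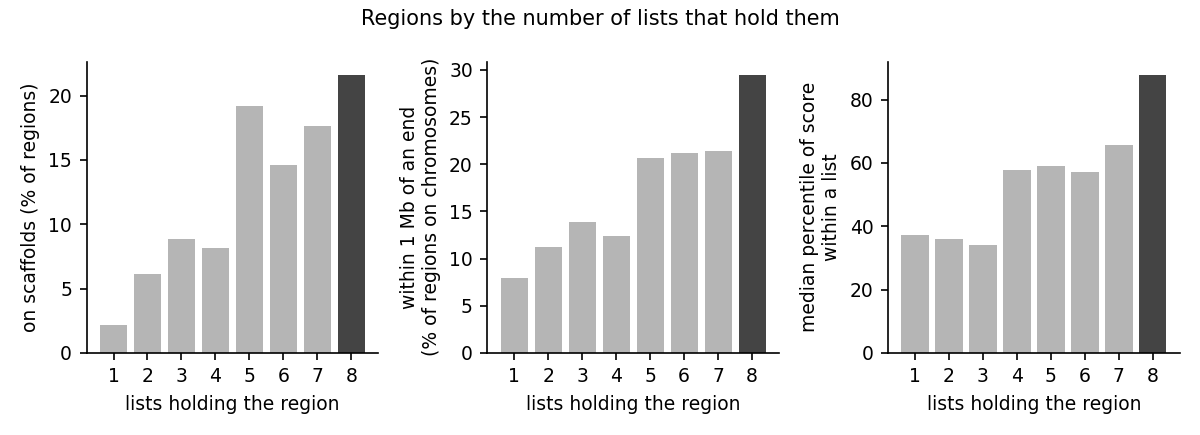
Bars give, for regions held by 1 to 8 lists (x axis), the percent on scaffolds, the percent within 1 Mb of a chromosome end and the median score percentile within a list. The dark bar is the 728 common regions, at 21.6%, 29.4% and 87.7, the highest bar in each panel.

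The common regions were unevenly spread over the chromosomes. Chromosomes 1 to 5, the largest, held 204 of them, or 28.0%, against 50.5% of all 30246 regions. Chromosomes 6 to 10 held 74, and the microchromosomes 11 to 33 held 203 (27.9%, against 23.1% of all regions). As a share of a chromosome's own regions, common ones ran from 0.529% on chromosome 24 to 11.5% on W, where they were 15 of 131. Chromosome 22 (13 of 169, 7.69%), chromosome 16 (10 of 136, 7.35%), chromosome 25 (17 of 245, 6.94%) and chromosome 33 (46 of 675, 6.81%) followed. Chromosome 16 carries the major histocompatibility genes and the ribosomal RNA genes in chicken. Chromosome 4, with 12 of 2171 regions (0.553%), and chromosome 3, with 19 of 2606 (0.729%), were at the low end. Z held 75 common regions among 2541 (2.95%), and 61 of the 75 began at or beyond 70 Mb. That distal part of the Z long arm is known as heterochromatin.

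**Figure D2:**
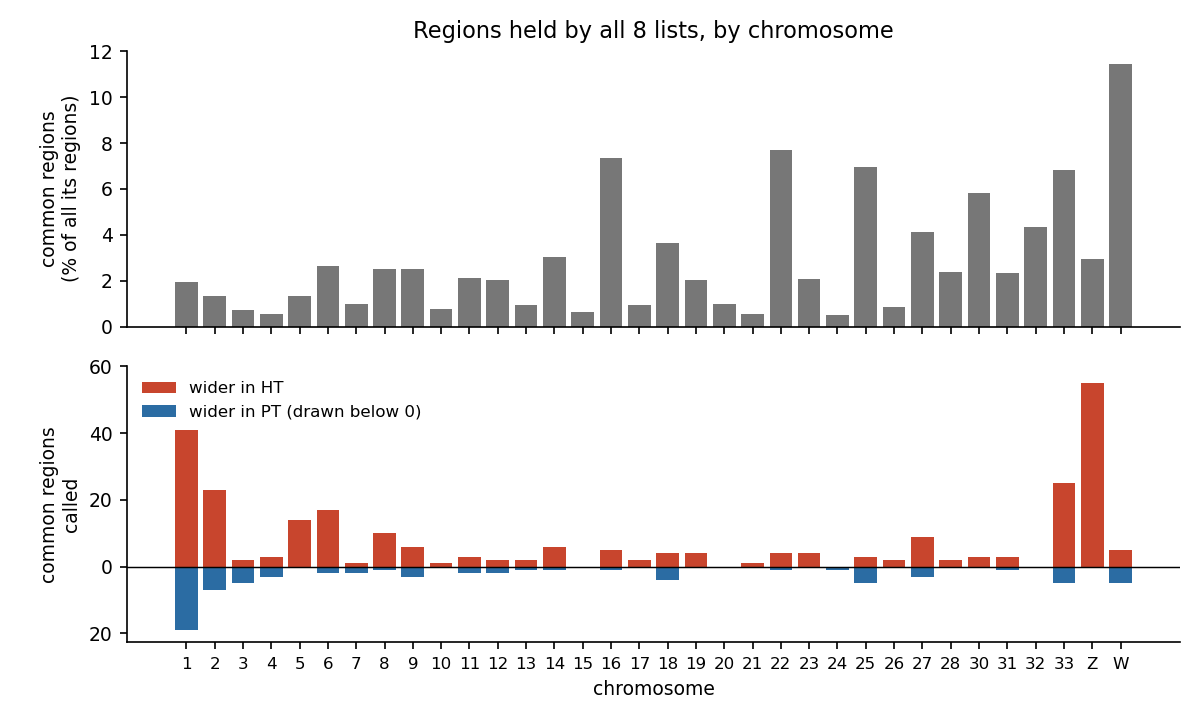
The upper bars give the common regions as a percent of all regions of each chromosome, highest on W at 11.5%. The lower bars give how many common regions were called wider in HT (above 0) or in PT (below 0) by limma at an adjusted p under 0.05, with 55 and 0 on Z.

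Many common regions stood in runs. Of the 571 on chromosomes, 195 had another common region within 10 kb, and the median distance to the nearest one was 24.2 kb. Chained over gaps of up to 100 kb, they formed 288 runs. Most runs, 188, were single regions, while 28 runs of 5 or more held 195 regions. The run with the most common regions was 18:10976560-11156475 (galGal6, as are all positions here). It lay near the end of chromosome 18, with 13 common regions among the 32 of its span. Runs of 11 lay at 2:142707419-142815134 and 8:11301515-11498342. Chromosome 33 had 2 neighbouring runs of 9, at 33:3815685-4018106 and 33:4118276-4280912. A shorter stretch of 47.5 kb on chromosome 16, 16:1794308-1841794, held 7 common regions among 13 regions. In 1:90741120-90766913 all 5 regions of the span were common ones. Distances and runs were not taken over all regions, so no background stands beside these counts.

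Holding a peak in every list did not mean that the lists covered the same bases. The common regions spanned 1276 kb together. Of this, 655 kb (51.4%) was covered in all 8 lists and 873 kb (68.5%) in at least 1 list of each group. HT peaks alone covered 322 kb (25.2%) and PT peaks alone 80.8 kb (6.33%). The median region had 522.5 bp in all 8 lists, or 51.9% of its width. In 26 regions no single base was covered by all 8 lists, while each of the 728 had at least 1 base covered in both groups. In 349 regions the HT peaks covered every base that PT peaks covered, and the reverse held in 63. The centre of the highest-scoring peak differed between the group medians by a median of 118 bp. Within a group the 4 centres spanned a median of 27.5 bp in PT and 83 bp in HT.

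HT peaks were wider than PT peaks in the common regions taken as a whole. The median summed width, which adds all peaks of a list in a region, was 742.5, 688.5, 737.5 and 719.5 bp in PT lists 1 to 4. In HT lists 1 to 4 it was 958.5, 935, 949.5 and 960.5 bp. The highest PT list thus lay below the lowest HT list. The means were 951 ± 11.6 bp in HT and 722 ± 24.4 bp in PT (SD, n = 4 lists each), a ratio of 1.32. Over all peaks of a list the medians were 479 to 491 bp in PT and 493 to 503 bp in HT, a ratio of 1.03. Those are single peaks, at places that differ between lists, so the 2 ratios are not like for like. Over all regions that at least 2 lists of each group held, the median log2 summed width per list was 0.46 higher in HT. Over the common regions alone it was 0.40 higher, so wider HT peaks were not particular to them. Common regions covered 1.06 ± 0.0140 Mb in HT and 0.844 ± 0.0178 Mb in PT. When each list was cut to its top 5120 peaks by score, 516 regions were common. The HT minus PT difference in median summed width was then 213.5 bp, against 229 bp over the 728. The median log2 difference per region was 0.15, against 0.23 over the 728.

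**Figure D3:**
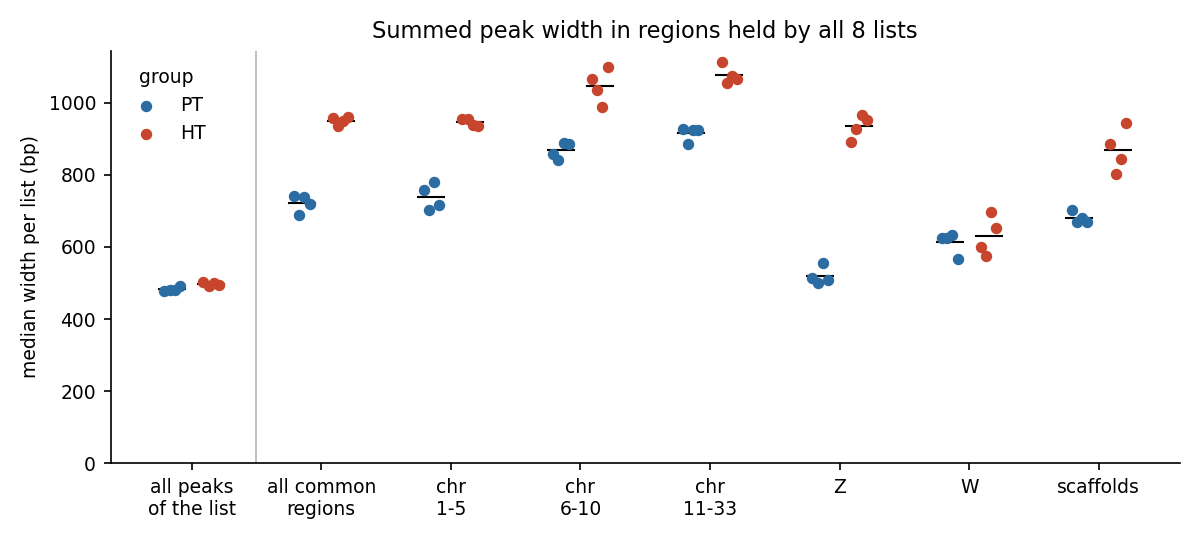
Each point is the median width in 1 list, in bp, for all its peaks (left) and for the summed peak width in the common regions by chromosome class, with black lines at the mean of 4 lists. HT points lie above PT points in every class of common regions but W, where the groups overlap.

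Region by region, the change went in both directions. The summed width was compared with limma on the log2 scale over all 1219 regions that at least 2 lists of each group held, with Benjamini-Hochberg adjustment over the 1219. Among the 728 common regions, 339 were wider in HT, 96 were wider in PT and 293 did not pass an adjusted p of 0.05. The background over all regions tested was 44.3% wider in HT and 14.7% wider in PT. The common regions, at 46.6% and 13.2%, make up most of the regions tested. Among the other 491 the shares were 40.9% and 16.9%, and the difference between both sets was not tested. The difference ran from -1.48 to 2.85, with a median of 0.23 against 0.24 over all regions tested, and the median standard error was 0.10. A difference of at least 2-fold with the same adjusted p was found in 102 common regions toward HT and 9 toward PT, against backgrounds of 14.7% and 1.8%. All 4 HT values were above all 4 PT values in 346 regions (background 48.6%) and below them in 102 (background 17.0%), against 105 (21.4%) of the other 491. Each of the other 491 was missing from some list, so fewer values were compared there and groups separate more easily. The backgrounds include these regions, so neither comparison is like for like. Each list was also centred on its median log2 width over the tested regions it held, most of them common ones. This took the same 0.46 off the difference of every common region, more than the median difference itself. On that scale 142 common regions were wider in HT and 332 in PT. The counts thus hold for widths in bp and not for widths relative to the tested regions. Over all peaks of a list the ratio of median widths was 1.03, and centring on all peaks was not done.

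**Figure D4:**
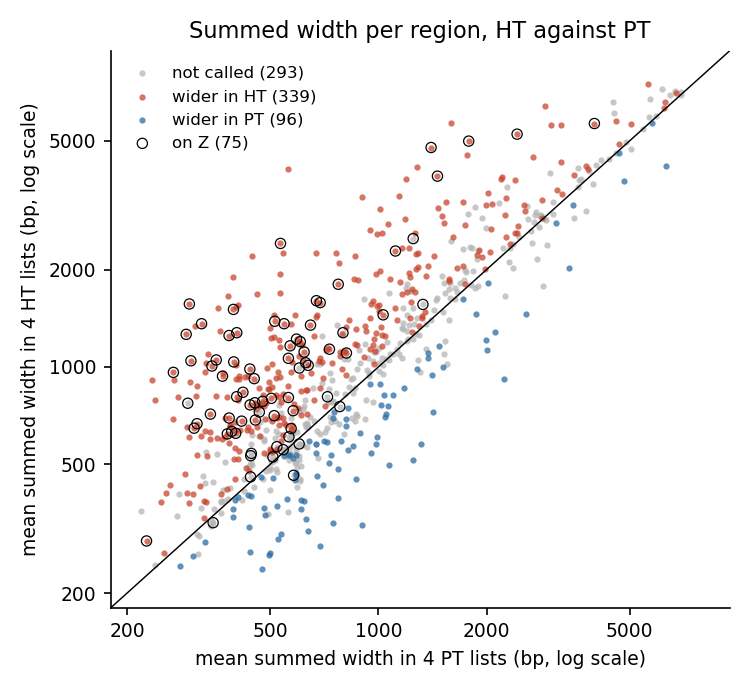
Each point is 1 of the 728 common regions, with its mean summed width in the 4 PT lists (x) and the 4 HT lists (y), in bp on log axes, and the line marks equal widths. The 339 regions wider in HT lie above the line, the 96 wider in PT below it, and the 75 on Z, ringed, lie mostly above.

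On Z, 55 of the 75 common regions (73.3%) were wider in HT by limma and 0 were wider in PT. The background over all 1219 regions tested was 44.3% and 14.7%. The median summed width over the 75 was 513, 501, 555 and 509 bp in PT lists 1 to 4 and 892, 928, 965 and 953 bp in HT lists 1 to 4. The groups did not overlap, at a ratio of means of 1.80. The median log2 difference was 0.85, against 0.23 over all 728 and 0.72 over the 153 Z regions tested. The median was 1.05 for the 14 regions below 70 Mb and 0.76 for the 61 beyond. In the lists themselves Z had 1125 ± 79.1 peaks in HT and 452.25 ± 72.6 in PT. That is a ratio of 2.49, against 1.61 for all peaks of a list. The median width of all Z peaks of a list averaged 543 bp in HT and 467 bp in PT, a ratio of 1.16. The part of the peak numbers in the widths was not tested. The sex of the birds is not given, and the difference between Z and other chromosomes was not tested. On W, where HT lists had 45.5 ± 3.79 peaks and PT lists 77.5 ± 1.73, the 15 common regions had medians of 567 to 634 bp in PT and 576 to 696 bp in HT. Of the 15, 5 (33.3%) were wider in HT and 5 (33.3%) in PT, and the median log2 difference was -0.24.

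For the other classes the median log2 difference was 0.19 on chromosomes 1 to 5, where 83 of 204 were wider in HT and 34 in PT. It was 0.30 on chromosomes 6 to 10 (35 and 8 of 74), 0.14 on chromosomes 11 to 33 (84 and 27 of 203) and 0.20 on scaffolds (77 and 22 of 157). Over all regions tested in these 4 classes, in the same order, the medians were 0.22, 0.26, 0.13 and 0.17. The background over all 1219 regions tested was 44.3% wider in HT and 14.7% wider in PT. Among single chromosomes with at least 10 common regions, chromosome 5 had 14 of 20 wider in HT and 0 in PT. On chromosome 33 the counts were 25 and 5 of 46. Chromosomes 18, 4 and 12 were balanced, with 4 and 4 of 14, 3 and 3 of 12, and 2 and 2 of 12. Chromosome 25 had 3 wider in HT and 5 in PT of 17, and chromosome 3 had 2 and 5 of 19. Shares over all tested regions of a single chromosome were not taken, and differences between chromosomes were not tested. Near chromosome ends the median was 0.10 over 168 regions, and further in it was 0.29 over 403. Of the 75 common regions on Z, only 1 lay near an end, and the part of Z in this contrast was not tested. Among the other regions tested the medians were 0.28 near ends and 0.32 further in.

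The region with the largest gain in HT was 33:3815685-3821126, at the start of a run of 9 of which 8 were wider in HT and 1 in PT. Its summed width was 552, 552, 552 and 582 bp in PT and 3459, 4020, 5442 and 3459 bp in HT. Each list had a single peak there, and the HT peaks alone covered 4860 bp. The log2 difference was 2.85 ± 0.15 (SE), with a limma adjusted p of 4.33e-06. Score order is the percentile of a region's highest score among the tested regions that a list held, not among all its peaks. It differed here by -7.59 ± 4.55 points and did not pass the threshold (limma adjusted p = 0.215). A region on W, W:792230-795615, had 543, 412, 412 and 412 bp in PT and 1542, 3043, 2434 and 1778 bp in HT, a difference of 2.27 ± 0.23 (limma adjusted p = 0.000165). No base of it was covered in all 8 lists, 300 bp were covered in PT only and 243 bp in both groups. This W region was among the 5 of 15 common regions on W that were wider in HT, while 5 were wider in PT. The number of peaks on W, a different measure, was lower in HT.

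In 1:25185826-25188391 all 4 PT lists gave 393 bp, and the HT lists gave 2072, 2030, 1417 and 2072 bp. The difference was 2.25 ± 0.13 (limma adjusted p = 7.05e-06). No base of this region was covered in all 8 lists, and 345 bp were covered in PT only, so the lists met in the region rather than at one site. Of the 8 largest gains, 4 were on distal Z. In Z:76471982-76474715 the widths were 633, 354, 796 and 354 bp in PT and 2734, 2086, 2086 and 2734 bp in HT. That difference was 2.25 ± 0.30 (limma adjusted p = 0.000705). Z:76013978-76015339 had 299 to 380 bp in PT and 1357 to 1362 bp in HT, a difference of 2.09 ± 0.08. Z:77094015-77095615 had 292 bp in each PT list and 928 to 1510 bp in HT (2.09 ± 0.14), and Z:75496854-75499201 had 269 to 385 bp in PT and 532 to 2348 bp in HT (2.19 ± 0.49). The HT lists were far apart in the last of these, where no base was covered in all 8 lists, but all lay above the PT lists. In 30:379528-381753 the PT widths were 352 to 372 bp and the HT widths 1113 to 2196 bp (2.05 ± 0.20), again with no base in all 8 lists. Thus 4 of the 8 largest gains had no base common to all lists.

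Losses of width in HT were smaller than the largest gains. The largest was in 9:1109288-1110201, with 903 bp in each PT list and 342, 298, 298 and 358 bp in HT. Its log2 difference was -1.48 ± 0.07 (limma adjusted p = 1.75e-06). All 4 PT lists placed it at the bottom of their score order, at 0.4 to 3.3, and the HT lists placed it at 0.7 to 23.1. The difference in order did not pass the threshold (limma adjusted p = 0.123). In 33:1930530-1931219, on the chromosome with the largest gain, the widths were 690 bp in each PT list and 278, 288, 278 and 278 bp in HT. The difference was -1.30 with a limma adjusted p of 1.01e-09, but the score order rose, with 7.4 to 33.6 in PT and 44.1 to 63.5 in HT (limma adjusted p = 0.00306). Width and score thus moved in opposite directions in this region. In 1:184164800-184167343 the PT lists gave 2221 to 2248 bp and the HT lists 873 to 1007 bp (-1.29 ± 0.05). Chromosome 25 had 2 of the 8 largest losses. In 25:2111186-2112587 each PT list had 2 peaks of 1220 to 1335 bp together and each HT list 1 peak of 502 to 552 bp. In 25:1615262-1616020 all PT lists gave 749 bp, and HT list 2, with 529 bp, was apart from the 263 bp of the other HT lists. The others were W:3202435-3204004 (-1.25 ± 0.27), 6:533783-535064 (-1.16 ± 0.27) and 22:3998300-3999154 (-1.02 ± 0.18).

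None of the 5 widest common regions on chromosomes, by mean summed width, passed the threshold for width. The first was 1:43517763-43525079, with 6775, 6775, 7010 and 7317 bp in PT and 7099 bp in each HT list. Its log2 difference of 0.03 ± 0.03 did not pass the threshold (limma adjusted p = 0.397), but did without PT list 4, at 0.05 (limma adjusted p = 0.022). In 25:529328-536782 the values were 6863 to 7245 bp in PT and 6911 to 7047 bp in HT, mostly as 2 peaks. The others were 4:90699997-90707455, 6:1144336-1152238 and 19:249403-256852, with limma adjusted p of 0.0779, 0.202 and 0.192. The first of these passed without PT list 3 (limma adjusted p = 0.036) or without HT list 2 (limma adjusted p = 0.0204). The last of these rose in score order, with 42.2 to 62.8 in PT and 86.7 to 92.5 in HT (limma adjusted p = 0.000513).

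Of the 5 chromosomal regions that stood highest in every list, 4 had a mean width in HT at most 1.03 times that in PT. In 27:293479-297884, which held the top peak of all 8 lists, each PT list gave 4376 bp and the HT lists 4384, 4394, 4400 and 4357 bp. Its score was exactly 3100 in each HT list, and whether the scale ends there is not given, so its place in HT may be capped. Of its 4406 bp, 4347 were covered in all 8 lists. In 10:20861796-20862938 the widths were 1128 bp in PT and 1133 to 1143 bp in HT, and in 31:2945470-2947874 they were 2321 bp in PT and 2392 to 2405 bp in HT. The latter was called wider in HT despite its ratio of 1.03 (limma adjusted p = 0.00085). In 3:105175515-105181159 the widths were 5373 to 5633 bp in PT and 5439 bp in HT. The fifth, 22:143731-144790, had a larger difference, with 683 bp in each PT list and 1042 to 1050 bp in HT. All lists still placed it at or above 99.6 in the score order, so a top place went with either width.

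Of the 3 common regions on W with the highest score percentiles, 2 were narrower in HT by limma. W:4118052-4119405 had 1043 bp in each PT list and 700 bp in each HT list, with a log2 difference of -0.58 (limma adjusted p = 1.01e-09). The HT and PT peaks there shared 389 bp. W:1486951-1487832 had 852 bp in each PT list and 542, 542, 542 and 653 bp in HT (-0.59 ± 0.06), while its score order rose, with 38.2 to 48.8 in PT and 80.6 to 83.4 in HT (limma adjusted p = 6.7e-05). W:962257-965140 had 2768 bp in each PT list and 2648, 1780, 2648 and 1581 bp in HT. All HT values were lower, but the difference of -0.39 ± 0.18 did not pass the threshold (limma adjusted p = 0.109).

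The order of the common regions by score differed more between the groups than within them. Over the 728 regions, the Spearman correlation of the highest score in each region was 0.88 to 0.93 between PT lists, 0.89 to 0.91 between HT lists and 0.59 to 0.64 between a PT and an HT list. For log2 summed width the Pearson correlations were 0.93 to 0.97, 0.94 to 0.95 and 0.78 to 0.81. These are descriptions over regions, which share their lists, and lists of a group share peak ends.

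Score order was compared as the percentile of a region among the regions in the same table of 1219 that a list held, 1038 to 1148 of them. By limma, 172 of the 728 common regions stood higher in HT and 158 lower, while 398 did not pass an adjusted p of 0.05. The background over the 1219 was 22.6% higher and 22.9% lower, with 23.6% and 21.7% among the common regions and 21.2% and 24.6% among the other 491. All 4 HT values were above the PT values in 188 regions (25.8%, background 25.6%) and below them in 165 (22.7%, background 25.9%). Among the other 491 the groups separated in 124 (25.3%) with HT higher and in 151 (30.8%) with HT lower. These backgrounds include regions missing from some lists, where fewer values were compared and groups separate more easily. Score order and width were only loosely tied. Of the 339 regions wider in HT, 97 were higher and 68 lower in score order, and of the 96 wider in PT, 27 were higher and 23 lower. The Spearman correlation of both differences over the 728 regions was 0.095.

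**Figure D5:**
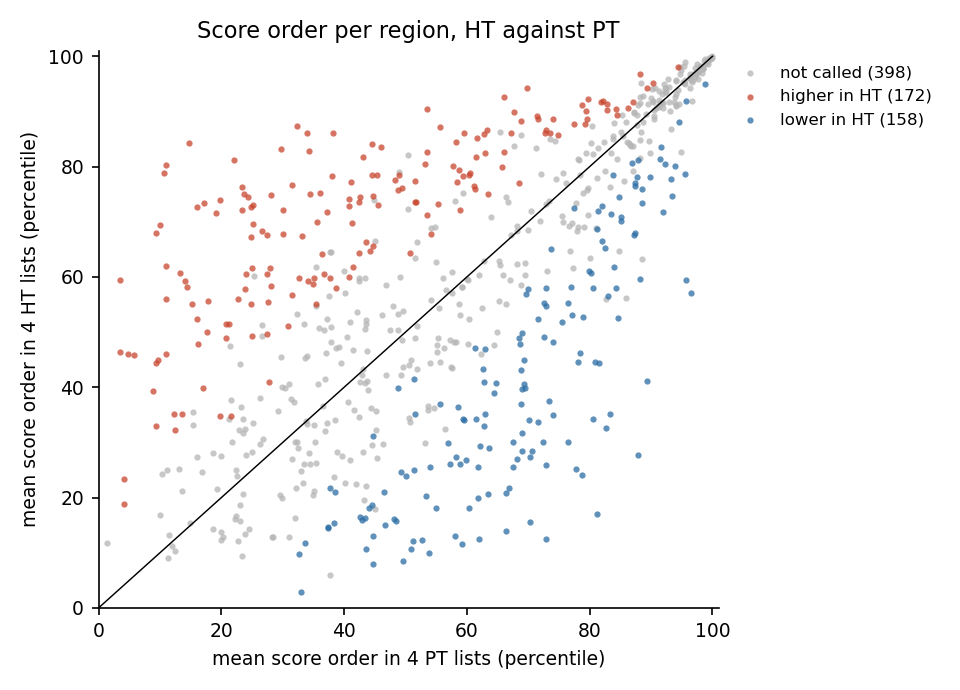
Each point is 1 of the 728 common regions, with its mean score order in the 4 PT lists (x) and the 4 HT lists (y). Score order is a percentile among the tested regions a list held, and the line marks equal order. Regions near 100 in both groups lie close to the line, and the 172 higher and 158 lower in HT spread over the middle and low range.

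The largest rise in score order on a chromosome was in 1:101855531-101857926, from 7.1, 14.6, 13.5 and 8.8 in PT to 79.8, 80.7, 79.0 and 81.8 in HT. The difference was 69.3 ± 2.10 points (SE; limma adjusted p = 5.25e-06). No base of it was covered in all 8 lists. Widths overlapped there, with 298 to 2035 bp in PT and 1154 to 2107 bp in HT. In 2:144074075-144075347 the order was 2.1 to 16.2 in PT and 73.8 to 83.9 in HT, a rise of 68.1 ± 3.69 points. The widths were 1021 bp in each PT list and 1232 to 1273 bp in HT. Z:76073364-76074567 rose by 59.4 ± 4.77 points, 4:47550680-47551721 by 58.6 ± 4.30 and 9:1123587-1127072 by 56.7 ± 7.31.

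The largest fall on a chromosome, -64.3 ± 3.08 points (limma adjusted p = 2.25e-05), was in Z:76098004-76098308. Its order was 77.5 to 83.5 in PT and 10.9 to 22.0 in HT. Z:76073364-76074567, which rose, stands in the same run of 9 common regions, so neighbours on distal Z moved in opposite directions. The width of Z:76098004-76098308 still rose, with 224 to 234 bp in PT and 274 to 305 bp in HT (limma adjusted p = 0.000124). In 3:4349456-4350347 the order fell, with 81.7 to 90.6 in PT and 12.5 to 43.4 in HT (-60.0 ± 6.33 points). 8:11404448-11404805 fell by 54.8 ± 6.23 points, 1:150731129-150731584 by 54.7 ± 3.37 and 12:20326979-20327819 by 52.6 ± 8.38. These 5 regions were 305 to 892 bp wide, all below the median of 1173.5 bp.

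Most common regions held a single peak per list. In 610 of 728 every list had 1 peak, no list had more than 3 in a region, and in 2 regions every list had more than 1. PT lists had more than 1 peak in 54, 56, 55 and 49 regions and HT lists in 33, 46, 43 and 37. The groups did not overlap in this count. Peaks per common region averaged 1.08 ± 0.00440 in PT and 1.06 ± 0.00804 in HT (SD, n = 4 lists each). All 4 PT lists had more peaks than any HT list in 14 regions (1.92%, background 1.23% of 1219), and the reverse held in 6 (0.824%, background 0.492%). Nearly all regions behind these backgrounds were common ones. Among the other 491 the groups separated in 1 region (0.204%) toward PT and in 0 toward HT, a difference that was not tested. The 1219 include regions missing from some lists, where fewer values were compared. With the highest-scoring 50% of each list the mean difference in peaks per list was 1.5 in place of -14, over 430 common regions. With lists cut to 5120 peaks it was -13.2, over 516.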

How the data were processed

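CUT&Tag for Nrf2 was analysed in 8 liver samples, grouped by their titles into PT and HT. Per the submitters' processing notes, the tools were cutadapt 1.9.2 and Bowtie2 2.2.4, with the galGal6 build. Each deposited list gives chromosome, start, end, peak name and a score from the authors' caller, whose peak names begin with MACS. No source used here gives its scale, the caller's settings, any control library or the treatment of duplicate reads. Starts were raised by 1 base.

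Peaks were merged and measured in Python 3.11.15 (numpy 2.4.6, pandas 2.3.3, matplotlib 3.10.9). Log2 summed width and score order were fitted with limma 3.58.1 in R 4.3.3 over regions held by at least 2 lists per group, 4 lists against 4. A list without a region is missing there, never for a common region. Code was tested on simulated data.

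Regions named are the 8 largest differences in width each way and the 5 largest in score order each way, among chromosomal regions past the threshold whose groups did not overlap. To these come the 5 widest, the 5 with the highest lowest-list percentile and the 3 highest-scoring on W. The common regions, tests and lists were chosen with earlier results of these data known. Runs and chromosome classes were set after the data were seen. Alternatives left out lists or peaks, changed the merging, scale or table, or added a replicate block.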

Additional observations from a re-analysis of the deposited data

Results flagged for a closer look

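Dixon's test for a value far from the other 3 lists of its group was run on 98 groups of 4: 20 for values per list and 78 for the widths of the 39 named regions. It passed in 30, where chance alone gives about 1 in 20. In 22 of the 28 widths that passed the other 3 lists gave exactly the same width, which makes any differing list pass.

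Among values per list, the peaks in common regions were lowest in PT list 4, at 779, and so was its mean of 1.07 peaks per region. The mean is that count divided by the number of common regions, so both passes are a single observation.

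In PT, the list apart had the highest width in 1:150731129-150731584 (359 bp), 12:20326979-20327819 (496 bp), 25:529328-536782 (7245 bp), 25:2111186-2112587 (1335 bp) and 3:4349456-4350347 (571 bp). The same held in 3:105175515-105181159 (5633 bp), 30:379528-381753 (372 bp), 33:3815685-3821126 (582 bp), 4:90699997-90707455 (7046 bp) and 8:11404448-11404805 (321 bp). It held as well in W:792230-795615 (543 bp) and on distal Z in Z:75496854-75499201 (385 bp), Z:76013978-76015339 (380 bp), Z:76073364-76074567 (767 bp) and Z:76098004-76098308 (234 bp).

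In HT, the list apart was the highest in 12:20326979-20327819 (797 bp), 25:529328-536782 (7047 bp), 25:1615262-1616020 (529 bp), 25:2111186-2112587 (552 bp) and 31:2945470-2947874 (2405 bp). It was also the highest in 33:1930530-1931219 (288 bp), 6:1144336-1152238 (7692 bp), W:1486951-1487832 (653 bp) and W:3202435-3204004 (950 bp). It was the lowest in 1:25185826-25188391 (1417 bp), 6:533783-535064 (276 bp), 9:1123587-1127072 (2897 bp) and Z:76013978-76015339 (1357 bp).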

How the results depend on the processing

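Of 123 alternative values of the main results, 100 stayed within 1.5 times for counts or within the spread for other values, 22 moved and 1 reversed. Most of the 100 left out only 1 list, and every value of that kind stayed. Lists of a group share peak ends, and leaving out a list can only raise the number of common regions. The 100 thus say little about stability. Causes of the moved and reversed values were not tested unless the setting gives them. Common regions numbered 430 in the highest-scoring 50% of each list, 436 with 50% cover of the region asked of every list, and 739 to 802 with any 1 list left out. Regions wider in HT and in PT numbered 142 and 332 with centred lists, 222 and 63 with equal list lengths, 184 and 47 in the highest-scoring 50%, and 301 to 339 and 81 to 99 with any 1 list left out. Settings chosen after the data were seen gave 196 and 54 without scaffolds and outer 1 Mb, 4 and 0 where no lists share peak ends (22 regions, fewer tested), and 102 and 9 at 2-fold. Regions lower in score order numbered 103 with equal list lengths and 129 to 150 with any 1 list left out, and higher ones 138 to 165. The share near an end was 35.0% with equal list lengths, 36.6% with 50% cover, 20.3% within 0.5 Mb and 37.8% within 2 Mb; that on scaffolds was 24.8% with 50% cover. With any 1 list left out these were 28.0% to 29.7% and 20.9% to 21.8%. The HT minus PT difference in peaks was 1.5 in the highest-scoring 50% and -16.1 to -11.8 with any 1 list left out. For median width it was 181 bp without Z and W, 202 bp in the highest-scoring 50% and 218 to 236 bp with any 1 list left out. Centring took the log2 width difference to -0.43 in 1:43517763-43525079, -0.44 in 10:20861796-20862938, -0.45 in 27:293479-297884 and 3:105175515-105181159, -0.41 in 31:2945470-2947874, -0.36 in 4:90699997-90707455 and -0.37 in 6:1144336-1152238, and gave a call at -0.46 in 25:529328-536782 and -0.85 in W:962257-965140. Leaving out a list gave a call, at 0.02 to 0.13, in 1:43517763-43525079, 3:105175515-105181159 and 4:90699997-90707455. With the replicate block 299 and 76 regions were called for width and 144 and 132 for score order. Replicate numbers share only a label, with correlations of 0.0591, 0.0709, -0.00104 and 0.00837 between same-numbered deviations (own number highest for 2 of 4 PT lists). Read depth, which limits what a list can hold, is unknown.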
